A study of Homo sapiens with 40 samples.

Results

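Clustered protocadherins are 53 protein-coding genes in 3 tandem families on human chromosome 5, and accessible chromatin was found at the start of 3 of them. The genes were taken from the GENCODE release 44 annotation of GRCh38 (hg38) by symbol, and comprised 15 PCDHA (alpha), 16 PCDHB (beta) and 22 PCDHG (gamma) genes of 19970 protein-coding genes on chromosomes 1 to 22 and X. All lie on the + strand within chr5:140786136-141512977, a span of 727 kb. ATAC-seq measures where a transposase can reach the DNA, and each library is represented by a list of peaks. Peaks of all libraries that overlapped by at least 1 bp were merged, regions found in at least 2 lists were kept, and 11 of the 71600 consensus regions lay at or between the protocadherin genes. Of these, 3 had their midpoint within 1 kb of a gene start and 8 lay elsewhere in the span, and 3 of the 11 had a peak in all 40 libraries.

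BT474 is a HER2-positive breast cancer cell line, and BT474R is its clone 5, a single clone derived from BT474 cells kept in trastuzumab, an antibody against HER2. Cells of both lines were serum starved and collected at 0 h (baseline), or treated with epidermal growth factor (EGF), heregulin (HRG) or water as vehicle (control) for 1, 12 or 24 h in starvation medium. Each of the 20 groups held 2 libraries, so that each line had 20 libraries and each ligand or control arm had 6 per line. The study describes its treatments as made in duplicate, without saying whether the pair came from independently grown cultures, and p-values therefore measure the spread between libraries, which may be technical. A list held 47571 to 56846 peaks in BT474 and 32479 to 56494 in BT474R. Read depth is not known from the lists, and accessibility without a peak was below what they report rather than shown to be absent.

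Protocadherins are cadherin-like adhesion proteins of the cell surface that are best known from neurons, where each cell uses its own small combination of alternative genes and the proteins bind the same combination on other cells. In the alpha and gamma families each variable first exon has its own promoter and is spliced to constant exons shared by the family, whereas beta genes have a single coding exon. The variable promoters carry a conserved element and are bound by CTCF, which with cohesin joins a promoter to distant enhancers. The 5 C-type genes at the ends of the alpha and gamma families (PCDHAC1, PCDHAC2, PCDHGC3, PCDHGC4 and PCDHGC5) are known for expression that is less selective than that of the alternative genes. Promoters of the clusters are also known to gain DNA methylation in several cancers.

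Part of the promoters of each family shared a run of 10 letters that the other families lacked. Each run was picked from the promoter windows described below as the most widely shared of its family. Its share in that family was thus favoured by the choice, and the runs are shown as a description only. Windows from 250 bases before to 50 bases after each gene start were read from the hg38 genome. The run GGTGGCGCTG was in 13 of the 16 beta windows and in 0.245% of 19969 protein-coding gene windows, ATGATGTCGC in 9 of the 15 alpha windows and in 0.0501% of all, and GCGCCGCTGT in 9 of the 22 gamma windows and in 0.1% of all. None of the 3 runs occurred in a window of either of the other families. Genes outside the clusters had the beta run in 36 windows, the alpha run in 1 and the gamma run in 11. The shorter CGCT letters, searched on both strands, were in 51 of the 53 member windows (96.2%) and in 77.3% of all windows. The letters of AP-1 (TGANTCA), a growth-factor-responsive factor, were in 3 of 53 (5.66%) against 6.38%, and the CTCF and REST consensus motifs in 0 of 53 against 0.531% and 0.1%. These motifs were searched on both strands, but the 3 family runs on the strand of the gene only. No match says only that these letters are not in the window. The following 40-base stretches (+ strand, hg38, run in capitals) lie at chr5:141121719-141121758 (PCDHB4), chr5:141135175-141135214 (PCDHB5), chr5:141182306-141182345 (PCDHB16), chr5:140786080-140786119 (PCDHA1), chr5:140841124-140841163 (PCDHA8), chr5:141407921-141407960 (PCDHGB6) and chr5:141397860-141397899 (PCDHGB5). PCDHB4 and PCDHGB6 had a promoter region, each resting on weak peaks in 2 libraries of BT474 and none of BT474R. The others had no promoter region.
PCDHB4: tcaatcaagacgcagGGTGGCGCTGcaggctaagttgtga
PCDHB5: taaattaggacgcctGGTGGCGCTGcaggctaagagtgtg
PCDHB16: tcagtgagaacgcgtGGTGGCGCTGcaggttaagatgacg
PCDHA1: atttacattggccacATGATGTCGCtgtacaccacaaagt
PCDHA8: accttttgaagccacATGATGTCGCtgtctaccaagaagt
PCDHGB6: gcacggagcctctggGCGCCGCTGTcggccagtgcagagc
PCDHGB5: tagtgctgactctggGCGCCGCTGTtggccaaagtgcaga

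A promoter region was found for 3 of the 53 genes (5.66%), compared with 60.7% of the 19917 other protein-coding genes. The count was 1, PCDHGC3, with peaks of a score of at least 400 only, with equal numbers of top peaks per library, and with regions in at least 4 lists. None of the 15 alpha genes, 1 of the 16 beta genes (PCDHB4) and 2 of the 22 gamma genes (PCDHGB6 and PCDHGC3) had one, and no further peak in any single list lay in the span. The starts without a region lay in long gaps between neighbouring regions. A gap of 268.5 kb held all 15 alpha starts, one of 198.0 kb held the 12 beta starts from PCDHB5 to PCDHB15, one of 86.5 kb held the 14 gamma starts from PCDHGA1 to PCDHGA9, and one of 67.4 kb held the 4 from PCDHGA10 to PCDHGA12. Gaps at least as long made up 2.09%, 3.43%, 10.8% and 14.6% of all gaps between regions, so that the latter pair were not rare in length. The 5 other starts without a region (PCDHB1, PCDHB2, PCDHB3, PCDHGC4 and PCDHGC5) lay outside these gaps. The density over the whole span was 15.1 regions per Mb, against 19.4 on chromosome 5, and the regions covered 0.94% of it. Near-identical paralogs can lose peaks when reads map to several places, and how such reads were treated is not given in the sources used here. In the 2 kb around the starts, a median of 0.154% of 50-base words occurred elsewhere in the span, 32 of the 53 genes had under 1%, and 3 had over 25%, with the highest value of 38.7% at PCDHB8 and PCDHB13. No such word was found at 26 of the 53 starts, namely 2 of 15 alpha, 12 of 16 beta and 12 of 22 gamma, and the median was 4.25% in the alpha family. Words were compared within the span and not with the rest of the genome, and the part of multi-mapped reads was not tested.

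The member promoters were poor in CpG dinucleotides, the sites of DNA methylation, and lacked regions also when set beside promoters of like CpG count. The median window held 7 CpG (0 to 27) and 38.7% GC, against 18 CpG and 60.3% GC over all protein-coding genes. With 5 to 9 CpG, 0 of 30 members had a promoter region against 33.6% of 2642 other genes. With 10 to 19 CpG, 3 of 14 members (21.4%) had one against 66.5% of 3883, and below 5 CpG it was 0 of 8 against 14% of 4015. PCDHAC1, with 27 CpG and 66% GC, was the only member with at least 20 CpG and had no region, whereas 86% of 9376 other genes in that class did. The classes match the CpG count only. With 5 to 9 CpG the median GC was 38% in members and 52.3% in other genes. With 10 to 19 CpG it was 47.3% and 57%. These shares are descriptions and were not tested.

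**Figure D1:**
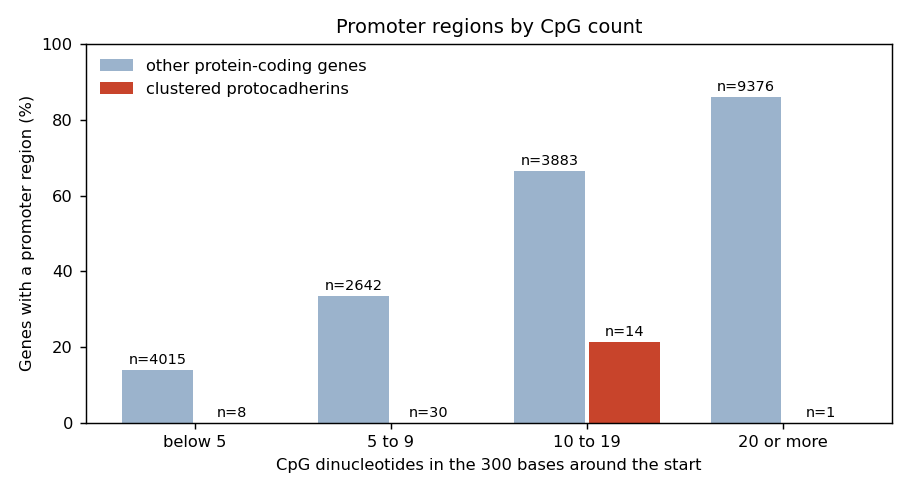
Share of genes with a promoter region (y axis, percent) by the number of CpG in the 300-base promoter window (x axis, 4 classes), for the 53 protocadherins and the other protein-coding genes, with the number of genes of the class written above each bar. Members had a region only in the class of 10 to 19 CpG, 3 of 14, where 66.5% of the other genes had one.

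The 11 regions fell into 4 places, namely between the constant exons of the alpha family (regions 1 to 3), between the alpha and beta families (4 and 5), within the beta family (6 and 7), and from the end of the beta to the end of the gamma family (8 to 11). A library of BT474 had a peak in 8.15 ± 0.75 of the 11 regions (SD, n = 20 libraries; 7 to 10), and a library of BT474R in 5.60 ± 0.99 (SD, n = 20; 3 to 7). The lowest counts of BT474R, 3 with control and 4 with EGF, were both at 12 h, in lists of 32479 and 37476 peaks. The strength of a peak is given as its rank percentile, the position of its score among all peaks of its own library on a scale from 0 (weakest) to 100 (strongest). By this measure the PCDHGC3 promoter (region 10) and region 3 were the strongest of the clusters in both lines.

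**Figure D2:**
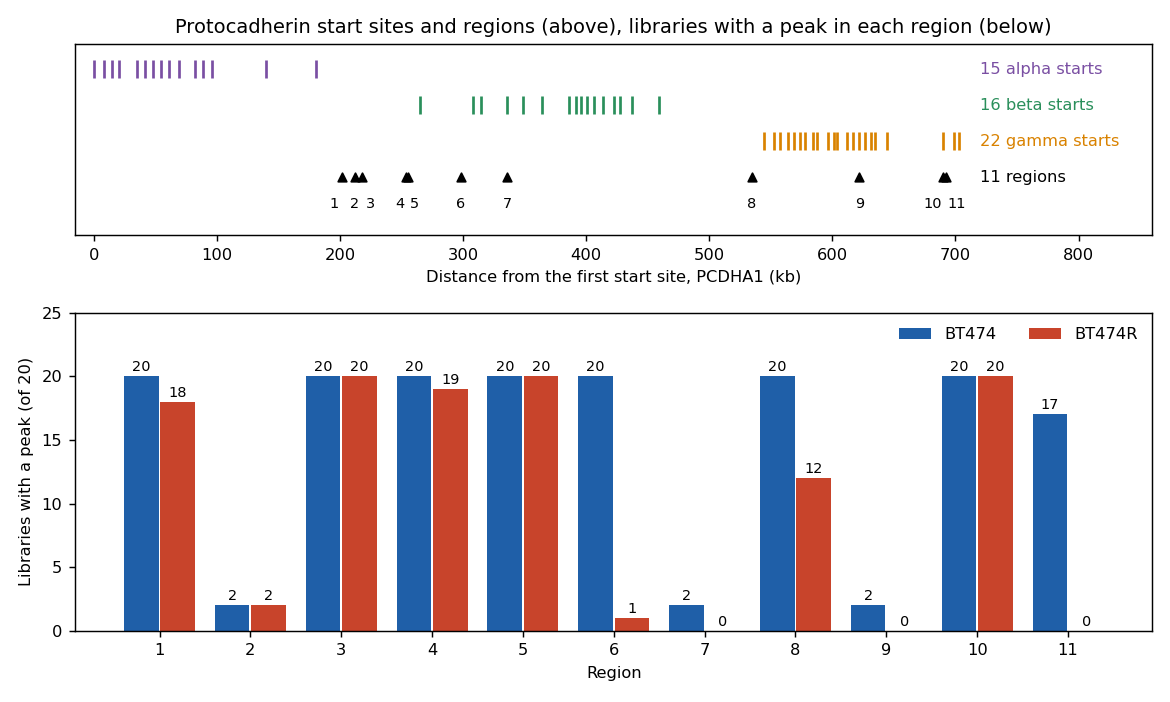
Upper panel, start sites of the 15 alpha, 16 beta and 22 gamma genes (ticks) and the 11 regions (triangles) by distance from the PCDHA1 start in kb. Lower panel, number of the 20 libraries of BT474 (blue) and of BT474R (red) with a peak in each region, where regions 3, 5 and 10 had a peak in all 40 and regions 6 and 11 in 20 and 17 of BT474 against 1 and 0 of BT474R.

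PCDHGC3, the first of the gamma C-type genes, was the only member with a promoter peak in every library. Its region 10 (chr5:141475661-141476976, 1316 bp) covers the gene start at position 141475947. The rank percentile was lowest at 85.6, median 89.0 and highest at 90.9 in BT474, and 67.3, 78.7 and 83.7 in BT474R, so that the lines did not overlap. Its promoter held 19 CpG and none of the 3 family runs. Read on the + strand only, the CGCT letters occurred 4 times in the 160 bases at chr5:141475807-141475966 (hg38). The stretch is shown because this is the promoter that was accessible throughout, with CGCT of the + strand in capitals.
PCDHGC3: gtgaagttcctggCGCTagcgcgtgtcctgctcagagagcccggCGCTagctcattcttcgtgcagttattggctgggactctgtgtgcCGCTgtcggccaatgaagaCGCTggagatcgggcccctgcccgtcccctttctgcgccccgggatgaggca
A further region, 11 (chr5:141478244-141478629), lay in the first coding exon of PCDHGC3, its midpoint 2489 bp past the start. It had a peak in 17 of 20 libraries of BT474, at percentiles of 0.538 to 24.5 (median 11.4), and in none of BT474R. The other C-type genes had no promoter region in any library. Their windows held 27 CpG (PCDHAC1), 14 (PCDHAC2), 17 (PCDHGC4) and 5 (PCDHGC5).

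Between the second and the third constant exon, which all 15 alpha genes share, there were 3 regions. Region 3 (chr5:141003860-141004723) was the strongest region of the clusters away from a promoter. Its percentile in BT474 was 81.3 at the lowest, 86.1 in the median and 90.7 at the highest, and in BT474R 66.6, 77.7 and 82.5. The lines overlapped between 81.3 and 82.5. The AP-1 letters TGANTCA occurred at 2 places in its central 300 bases, at chr5:141004259-141004265 and chr5:141004436-141004442. The stretch chr5:141004215-141004514 (+ strand, hg38) is given with the AP-1 letters in capitals. It is shown because region 3 was called higher with both ligands in BT474 and with EGF in BT474R (below). With HRG in BT474R region 3 was not called, and a role of the AP-1 letters was not tested.
region 3: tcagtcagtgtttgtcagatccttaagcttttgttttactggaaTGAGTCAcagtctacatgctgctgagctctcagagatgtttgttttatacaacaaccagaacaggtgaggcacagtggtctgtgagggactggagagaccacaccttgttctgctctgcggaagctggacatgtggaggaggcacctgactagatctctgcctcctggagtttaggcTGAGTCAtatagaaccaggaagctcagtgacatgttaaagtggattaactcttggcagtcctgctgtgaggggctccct
In 200 bases around the summit, AP-1 letters were found in 2 of the 11 regions (18.2%, regions 2 and 3) and in 16.2% of all 71600 regions. Region 1 (chr5:140987999-140988540), which overlaps an annotated exon of PCDHAC2, had a peak in 20 of 20 and 18 of 20 libraries, at a median percentile of 41.6 (34.0 to 64.8) in BT474 and 25 (3.90 to 54.2) in BT474R. Region 2 (chr5:140997943-140998202) had a peak in 4 libraries, 2 of BT474 (0.908 and 1.84) and 2 of BT474R (15.7 and 6.76).

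Regions 4 and 5 lay 27.6 and 28.5 kb past the last alpha exon and 10.9 and 9.91 kb before the start of PCDHB1, where they overlap a noncoding gene (ENSG00000288892) of the opposite strand. Region 5 (chr5:141040812-141041464) had a peak in all 40 libraries. Its percentiles were 69.7, 74.4 and 78.4 (lowest, median, highest) in BT474 and 53.0, 67.2 and 71.8 in BT474R. Region 4 (chr5:141039983-141040473) had a peak in 20 of 20 and 19 of 20 libraries, at medians of 47.2 (41.9 to 55.4) and 26.1 (3.53 to 45.9). The lines overlapped in a narrow range at both. Region 4 was the only 1 of the 11 regions with a CTCF consensus match in the 200 bases around its summit, compared with 3.03% of all regions, and no region had a REST match (0.127% of all). The match, GCCCTCTGCTGG at chr5:141040363-141040374, is given in capitals in the 300 bases at chr5:141040141-141040440 (+ strand, hg38).
region 4: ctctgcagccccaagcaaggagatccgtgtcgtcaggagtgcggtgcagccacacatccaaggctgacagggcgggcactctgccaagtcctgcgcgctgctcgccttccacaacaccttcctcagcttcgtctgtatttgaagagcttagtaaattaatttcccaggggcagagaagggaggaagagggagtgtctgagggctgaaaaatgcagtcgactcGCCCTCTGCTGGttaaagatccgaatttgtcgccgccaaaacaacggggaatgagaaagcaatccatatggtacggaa
The matched letters are the reverse complement of the consensus, and a match is a description of the sequence and not of binding.

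Region 6 was the region that differed most completely between the lines. It lies within the beta family, between PCDHB1 and PCDHB2. All 20 libraries of BT474 had a peak, at percentiles of 32.0 to 43.3 (median 38.6), and 1 of 20 of BT474R had one, at 1.68, a baseline library. The lowest value of BT474 was thus far above the single value of BT474R.

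The promoters of PCDHB4 (region 7, chr5:141121721-141122244) and PCDHGB6 (region 9, chr5:141407907-141408285) rested on 2 weak peaks each. PCDHB4 had a peak in 1 library of HRG at 1 h (percentile 3.61) and 1 of control at 24 h (1.75), and PCDHGB6 in 1 of HRG at 1 h (2.57) and 1 of control at 24 h (6.36). All 4 were in BT474, and neither region had a peak in BT474R. Region 8 (chr5:141320211-141321366), between the beta and gamma families, is the promoter of TAF7, a subunit of the general transcription factor TFIID that is no protocadherin. It had a peak in 20 of 20 libraries of BT474 (27.2 to 70, median 46.5) and in 12 of 20 of BT474R (0.554 to 30.8, median 12.4).

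The accessible regions of the clusters were fewer and weaker in BT474R than in BT474. The presence of a peak was compared with Fisher's exact test (two-sided, 20 against 20 libraries, Benjamini-Hochberg over all 32683 regions that could reach p 0.05). Of the 11 regions 3 could be tested and all 3 were more often open in BT474, against a background of 71.7% of all tested regions called in either direction and 44.6% in this one. These were region 6 (20 against 1 library, adjusted p = 2.64e-09), the first exon of PCDHGC3 in region 11 (17 against 0, adjusted p = 1.46e-07) and the TAF7 promoter (20 against 12, adjusted p = 0.00585).

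Regions with a peak in all 40 libraries were compared by rank, re-ranked in each library among the 25166 such regions, with limma. All 3 of the members that could be tested were lower in BT474R, where 84% of all regions were called in either direction and 42.5% were called lower. The PCDHGC3 promoter had a mean percentile on this scale of 60.1 in BT474R and 77.5 in BT474, a difference of -17.41 (SE 1.17, adjusted p = 1.38e-12 by limma). Region 3 differed by -12.09 (SE 1.28, 60.4 against 72.5, adjusted p = 5.38e-09) and region 5 by -10.53 (SE 1.13, 40.8 against 51.3, adjusted p = 6.8e-09). With calls this frequent over all regions, a call by itself sets these regions apart little. By size, 10.9%, 17.7% and 20.4% of all regions had a difference as low as that of the PCDHGC3 promoter, region 3 and region 5.

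**Figure D3:**
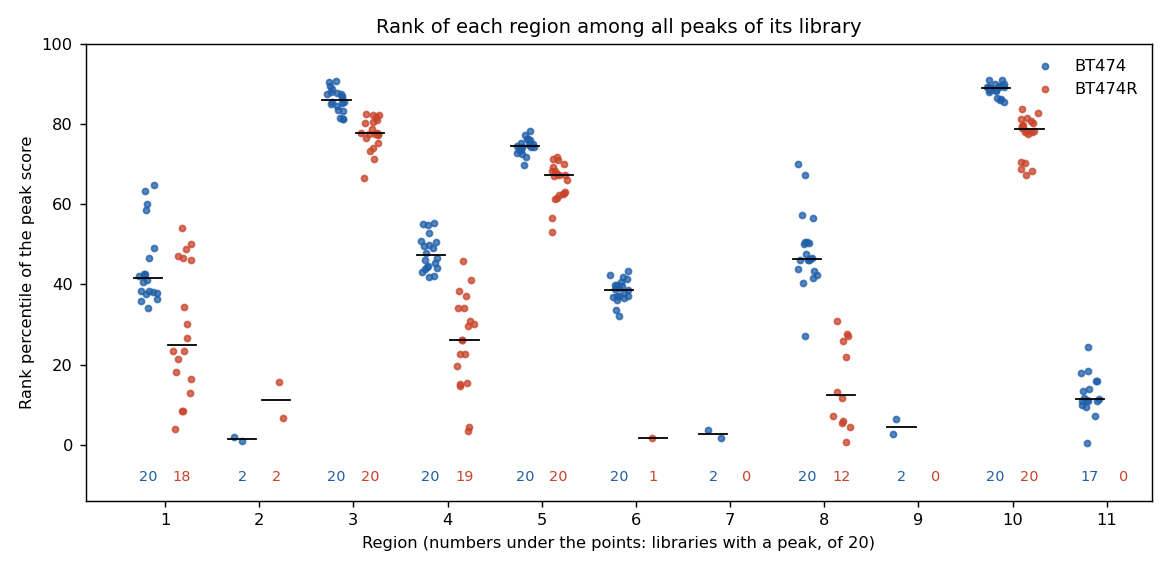
Rank percentile of the peak score among all peaks of its library (y axis) for the regions of the clusters (x axis), 1 point per library with a peak, BT474 in blue and BT474R in red, with a bar at each median. The PCDHGC3 promoter (region 10) had medians of 89.0 and 78.7 with no overlap, and regions 6 and 11 had 1 and 0 points in BT474R.

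The lower ranks were shared by the surroundings of the clusters. In the 500 kb on either side of the span, 19 of 20 regions were lower in BT474R and 1 higher, with a median difference of -10.20, and 14 of 23 were more often open in BT474 against 2 in BT474R. The median percentile of these 20 flanking regions was 86.8 to 90.6 over the libraries of BT474 and 71.2 to 81.4 over those of BT474R. Within 5 Mb on either side the median difference was -12.01, with 78 of 91 regions lower and 9 higher. From 90 to 180 Mb of chromosome 5 it was -11.25, with 376 of 493 lower, whereas below 90 Mb it was 0.31 and over all regions -0.15. The differences of regions 3 and 5 thus lay near the median of the 90 to 180 Mb part, and that of the PCDHGC3 promoter below it. Whether the copy number of this part of chromosome 5 differs between the lines was not tested.

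**Figure D4:**
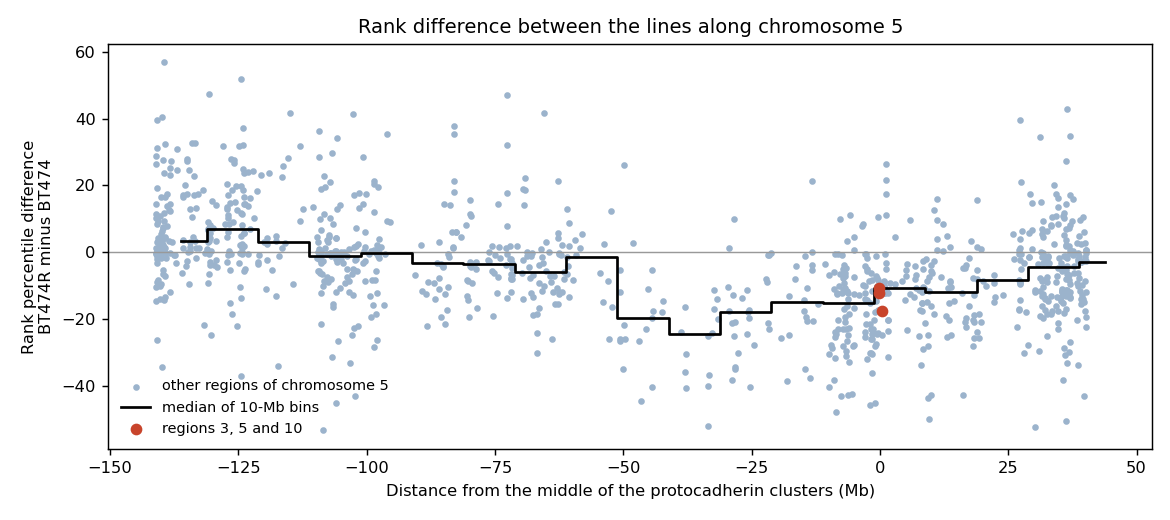
Difference in rank percentile, BT474R minus BT474 (y axis), against distance along chromosome 5 from the middle of the clusters in Mb (x axis), for regions with a peak in all 40 libraries (points) and medians of 10-Mb bins (line), with regions 3, 5 and 10 in red. Regions at 90 to 180 Mb of the chromosome, which include the clusters, had a median of -11.25 and those below 90 Mb of 0.31.

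Over the 3 times in BT474, limma called region 3 with both ligands and region 1 with EGF only, both between the alpha constant exons. The only protocadherin promoter that could be tested, that of PCDHGC3, was not called. In BT474 region 3 had percentiles of 81.3 to 85.3 with control (median 82.3), 85.1 to 90.6 with EGF (88.1) and 85.5 to 90.7 with HRG (87.7). The HRG libraries all lay above the control libraries, and 1 EGF library lay below the highest control library. Ligand and control were compared over the 3 times with limma among the regions open in all libraries of the line. Region 3 rose by 5.90 with EGF (SE 1.44, 82.9 against 77.0, adjusted p = 0.0135) and by 6.21 with HRG (SE 1.44, 83.2 against 77.0, adjusted p = 0.0076). With EGF region 1 also rose, by 6.42 (SE 1.89, 30.3 against 23.8, adjusted p = 0.0333), and with HRG its difference was 4.36 (SE 1.89, adjusted p = 0.118). In all, EGF raised 2 of the 7 members tested, against 17.5% of all regions called in either direction and 11.7% called higher. HRG raised 1 of 7, against 22.4% called in either direction and 12.7% called higher. With so few members tested, these counts do not set the clusters apart from all regions. Both ligands were compared with the same control libraries. The call of region 1 with EGF was lost, at 5.46 to 6.80, when any of 9 single libraries was left out, namely any control or EGF library other than EGF 1 h replicate 2, control 12 h replicate 1 and EGF 12 h replicate 1. Region 6 had a difference of -5.94 with EGF (SE 2.14, adjusted p = 0.0729) and of -4.92 with HRG (SE 2.14, adjusted p = 0.12).

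In BT474R region 3 was at 66.6 to 81.1 with control (median 74.2), 77.9 to 82.5 with EGF (81.1) and 77.2 to 82.3 with HRG (77.7). EGF and control overlapped, as 1 control library at 1 h reached 81.1. By limma region 3 rose with EGF by 8.64 (SE 2.32, 69.3 against 60.7, adjusted p = 0.0185). This was 1 of the 3 members tested, against 19.4% of all regions called in either direction and 11% called higher. The call was lost when any of 4 single libraries was left out (EGF 1 h replicate 2, EGF 24 h replicate 2, control 1 h replicate 2 or control 24 h replicate 1), with values of 7.44 to 8.24. The PCDHGC3 promoter had a difference of -7.50 with EGF (SE 2.49, adjusted p = 0.051 by limma), just outside the threshold, and passed when 1 of 4 libraries was left out (either baseline library, EGF 1 h replicate 1 or control 12 h replicate 1). Its percentiles with EGF were 78 and 70.3 at 1 h, 68.4 and 68.8 at 12 h and 81.2 and 79 at 24 h. With control they were 83.7 and 81.6, 67.3 and 79.5, and 77.6 and 80.3. The arms were thus apart at 1 h and overlapped at 12 and 24 h. With HRG limma called 0 of 3 members, against 3.67% of all regions, and 0 of 3 at an unadjusted p under 0.05, against 18.9% of all regions. Region 3 differed by 3.30 (SE 2.32, adjusted p = 0.473).

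At the 3 members that could be tested (regions 3 and 5 and the PCDHGC3 promoter), a difference in ligand effect between the lines was not found. Region 1 was not among them, as not all BT474R libraries had a peak there. Its mean percentile at 1 h in BT474 was 61.7 with EGF, 61.6 with HRG and 37.3 with control. In BT474R it was 46.9, 49.5 and 50.1, and whether the lines differed there was not tested. By limma 0 of 3 members were called for EGF and 0 of 3 for HRG, against 3.46% and 1.61% of all regions at the same adjusted threshold. At an unadjusted p under 0.05 it was 0 of 3 for either ligand, against 16.3% (EGF) and 11.8% (HRG) of all regions. The effect on region 3 in BT474R minus that in BT474 was 1.20 (95% interval -5.61 to 8.02) for EGF and -5.07 (-11.89 to 1.74) for HRG. Presence could be tested for no member in BT474, where each region was open in too many or too few of the 12 libraries of a comparison to reach a p of 0.05. In BT474R only the TAF7 promoter could be tested, with a peak in 4 of 6 EGF, 3 of 6 HRG and 3 of 6 control libraries (Fisher's exact test, p = 1 for both ligands). Fisher's test called 0% of all regions after adjustment for either ligand, and 4.08% (EGF) and 2.31% (HRG) at an unadjusted p under 0.05.

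The change at region 1 was transient in BT474. At 1 h its percentile was 64.8 and 58.6 with EGF and 63.3 and 60 with HRG, against 38.3 and 36.4 with control and 34.0 and 37.9 at baseline. No ligand library overlapped a control library at that time. Tested at each time, a comparison chosen after seeing the data, region 1 rose at 1 h by 28.15 with EGF (SE 3.27, adjusted p = 0.00115 by limma, 2.24% of all regions called higher) and by 30.07 with HRG (SE 3.27, adjusted p = 0.000203, 5.1% called higher). At 12 h its percentiles were 42.6 and 49.2 with EGF, 38 and 38.3 with HRG and 46.6 and 42.0 with control, and at 24 h 40.6 and 42.2, 35.9 and 37.7, and 42.5 and 41.2. HRG at 12 h was below control by limma (difference -11.61, adjusted p = 0.041, 3.6% of all regions called lower). The other late differences were not called, at -4.06 (EGF 12 h, adjusted p = 0.468), -4.85 (EGF 24 h, adjusted p = 0.347) and -5.38 (HRG 24 h, adjusted p = 0.289).

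The mean of region 3 in BT474 was above control with both ligands at each time and was called by limma at 24 h only, with a rise of 8.03 for EGF (SE 2.50, adjusted p = 0.0467, 10% of all regions called higher) and of 9.02 for HRG (SE 2.50, adjusted p = 0.029, 10% called higher). The differences at 1 h were 5.23 for either ligand (adjusted p = 0.304 and 0.223), and at 12 h 4.43 and 4.36 (adjusted p = 0.294 and 0.299). Whether the effect differed between times was not tested. In BT474R region 1 was not tested by rank, since 2 libraries at 12 h lacked a peak. Its percentiles at 1 h were 54.2 and 46.0 with control, 46.6 and 47.1 with EGF and 50.1 and 48.9 with HRG, and 3.90 to 34.3 in the 12 other libraries with a peak. In this line all arms were thus high at 1 h, control included. The lists of BT474R held 47474 to 56494 peaks at 1 h and 32479 to 45808 at 12 h, and the part of list size was not tested.

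**Figure D5:**
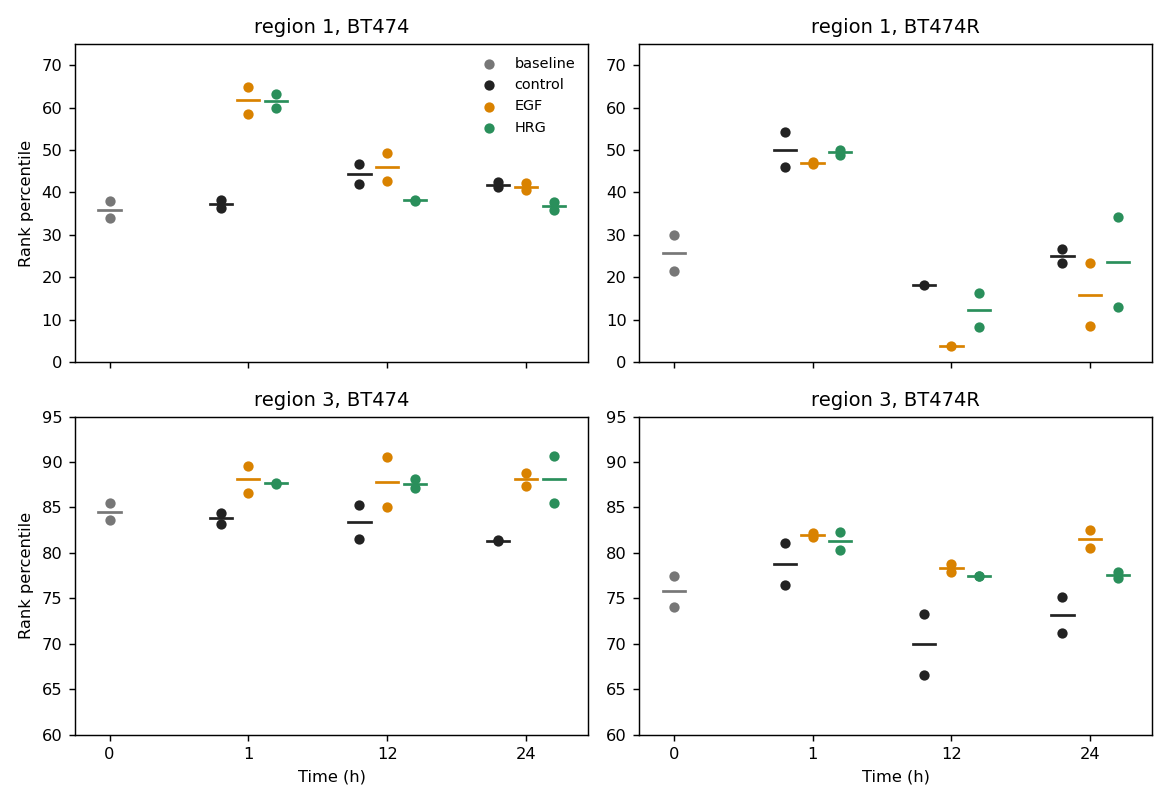
Rank percentile among all peaks of the library (y axis) of region 1 and region 3 by hours after treatment (x axis, evenly spaced: 0, 1, 12, 24) in BT474 and BT474R, 1 point per library with a peak, coloured by arm, with a bar at the mean of each group. In BT474 region 1 stood at 58.6 to 64.8 with either ligand at 1 h and at 36.4 to 38.3 with control, while in BT474R all arms stood at 46.0 to 54.2.

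Genes known to regulate the clusters were mostly open at their promoters. Of 23 such genes, 21 had a promoter region, against 60.6% of all protein-coding genes, and 19 had it in all 40 libraries. Between the lines limma called 16 of the 19, 7 higher and 9 lower in BT474R, close to the 84% called and 42.5% called lower over all regions, and each at an adjusted p of 0.00613 or less. CTCF, which binds the variable promoters, differed by -9.24. The core cohesin subunits did not move one way, with RAD21 at -15.01, SMC1A at 7.13, STAG1 at -2.59 and SMC3 not called (2.82, adjusted p = 0.384). Among genes that load, hold or release cohesin, NIPBL (-9.13) and WAPL (-5.59) were lower and MAU2 (7.29), PDS5A (18.39) and PDS5B (8.18) higher. Of the genes for silencing and for the gain or loss of DNA methylation, SMCHD1 (-13.57), DNMT1 (-17.33), DNMT3B (-19.80) and TET2 (-11.81) were lower. DNMT3A (6.44), SETDB1 (9.72) and TRIM28 (1.33) were higher. WIZ was open in 18 libraries of BT474 against 4 of BT474R (adjusted p = 5.16e-05 by Fisher's exact test), and REST, a repressor of neuronal genes, in 20 against 15 (adjusted p = 0.0597). With EGF limma called 2 of 20 in BT474, SMC3 (-23.03, adjusted p = 0.0176) and MAU2 (-3.32, adjusted p = 0.0316), and 1 of 19 in BT474R, SMCHD1 (-4.80, adjusted p = 0.0467). These counts lay below the 17.5% and 19.4% called over all regions.

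Non-clustered protocadherins, single genes elsewhere in the genome, had a promoter region in 6 of 12 cases, against 60.6% of all protein-coding genes. Presence could be tested between the lines for 3 of them, and 1 was called, against 71.7% of all regions tested. This was PCDH10, open in 20 libraries of BT474 and 1 of BT474R (adjusted p = 2.64e-09 by Fisher's exact test). By limma all 3 that could be tested by rank were called, against 84% of all regions. PCDH20 (10.17, adjusted p = 1.45e-14) and PCDH9 (5.63, adjusted p = 0.000139) were higher in BT474R and PCDH12 (-10.14, adjusted p = 9.2e-15) was lower. PCDH12 also lies within the 500 kb that flank the clusters. There were 30 other protein-coding genes with a start in the span or within 500 kb of it, called flanking genes here. Of these, 21 had a promoter region, a share near the 60.6% of all genes. In 17 it was found in all 40 libraries, some of them sharing a region. By limma all 17 were lower in BT474R, against 42.5% of all regions, with differences from -27.43 at HBEGF, which encodes an EGF-receptor ligand, to -1.06 at ANKHD1. The 3 that could be tested for presence were all more often open in BT474, against 44.6% of all regions tested. They were CD14 (13 against 0), PFDN1 (20 against 12) and TAF7. The TAF7 promoter lies inside the span and is region 8, already counted above. With the ligands limma called 1 of 4 non-clustered protocadherins with EGF in BT474, PCDH9 (-4.85, adjusted p = 0.0401), against 17.5% of all regions. Of the flanking genes it called 1 of 20 with HRG in BT474, EIF4EBP3 (-4.74, adjusted p = 0.00924), against 22.4% of all regions. With EGF in BT474R it called 1 of 17, SRA1 (-7.09, adjusted p = 0.0499), against 19.4%. For the flanking genes these counts lay below the shares called over all regions.

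Markers were read as a check on the cells. Of 9 luminal epithelial markers 8 had a promoter region and 7 had it in every library, with ERBB2 (HER2) at a median percentile of 99.7 in BT474 and 99.8 in BT474R. GATA3, a defining luminal factor, had a promoter peak in 19 libraries of BT474, at a low median percentile of 17.1, and in none of BT474R. Of all regions tested for presence, 44.6% were called more often open in BT474. None of the 3 leukocyte, 3 fibroblast or 3 endothelial markers had a promoter region in either line. Of 4 neuronal markers 3 had one, with SYP in all 40 libraries, SNAP25 in 20 and 18, and SYT1 in 20 of BT474 and 0 of BT474R, while RBFOX3 had none.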

How the data were processed

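Accessibility was measured by ATAC-seq in 40 libraries of the cell lines BT474 and BT474R. Per the study's methods and the submitters' processing notes, the authors trimmed adapters with Trim Galore (0.6.6), mapped reads to GRCh38.p13 with BBMap, removed mitochondrial and blacklisted reads and called peaks with Genrich in each library. The options of Genrich, including its ATAC mode and the handling of multi-mapped reads, were not given in the sources used here. The authors deposited a score per peak, the area of its significance curve, never under 200. A score moves with sequencing depth, and was therefore only ranked within a list. Reads were not analysed here, so the count model of the study was not repeated.

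Peaks overlapping by 1 bp were merged and kept if found in at least 2 lists. Genes came from GENCODE release 44 and sequences from the hg38 genome. The sequence of region 6 is not reported here. Groups came from the labels. Fisher's exact test compared presence, and p-values were adjusted (Benjamini-Hochberg) over all regions that could reach p 0.05. Ranks were compared with limma (3.58.1, R 4.3.3) on percentiles among regions open in all libraries compared, with a mean per group. Python 3.11.15 with scipy 1.17.1 and pandas 2.3.3 was used, and the scripts were tested on simulated data.

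The regions named were those past an adjusted p of 0.05, the promoter regions of members, the C-type genes and regions found in at least 30 libraries. The other regions were described because the span held only 11. Genes of the fixed lists were to be named where they passed 0.05, but flanking genes and markers past it are given partly by counts and ranges, and genes named without a call were chosen after their values were seen. The members, lists and tests were chosen with earlier results of these data known. Alternatives changed the score minimum, number and width of peaks, consensus rule, rank scale, replicate block and libraries.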

Additional observations from a re-analysis of the deposited data

How the results depend on the processing

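Presence in the lines, 3 of 3 members more often open in BT474, and rank in the lines kept their counts within 1.5 times in all alternatives run, leaving out each library included, which gave 3 to 4 members lower by rank. For the TAF7 promoter, with baseline and control libraries only, the difference in presence was -37.5 percentage points and no longer passed. The counts of accessible regions depended on weak peaks. With a score of at least 400 a library had a peak in 6.90 (BT474) and 3.55 (BT474R) member regions, with an equal number of top peaks in 6.25 and 3.60, and with at least 50% of a region covered BT474R had 4.60. Genes with a promoter region fell to 1, PCDHGC3, with a score of at least 400, with equal numbers of peaks and with regions in at least 4 lists.

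The ligand counts rested on few regions. EGF in BT474 gave 1 member with normal scores of the ranks (region 1, adjusted p = 0.107 by limma) and 1 to 2 when each library was left out, region 1 being lost in 9 of 20 fits. EGF in BT474R gave 2 with normal scores, the PCDHGC3 promoter passing at an adjusted p of 0.0451, and 0 to 2 when each library was left out. HRG in BT474 gave 2 with a score of at least 400. Ranked among all peaks, the PCDHGC3 promoter with HRG in BT474R turned from -3.14 to 0.75 (adjusted p = 0.89). The contrasts at single times were chosen after seeing the data. At 1, 12 and 24 h they gave 1, 0 and 1 members for EGF in BT474 and 0, 0 and 0 in BT474R, and turned region 1 to -4.06 at 12 h and -4.85 at 24 h with EGF and the PCDHGC3 promoter to 1.09 at 1 h with HRG in BT474. The cause of these shifts was not tested.

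The replicate numbers paired the libraries weakly at most (correlations of their deviations -0.06 to 0.29, median 0.07, 4 of 12 pairs over 0.1). With the replicate number as a block, 3 regions were called in the lines by presence and 3 by rank, 2 for EGF and 1 for HRG in BT474, and 1 for EGF in BT474R, as without it. Depth is unknown, so a missing peak sets no limit on accessibility.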
